A study of Mus musculus with 4 samples.

Results

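The hair shaft and its sheaths are built from a set of keratins and partner proteins that epidermis between follicles largely lacks, and 35 such genes were followed in embryonic mouse skin that overexpresses Ovol2. The genes were taken by name: 8 inner root sheath keratins, 15 hair shaft keratins, 2 keratins of the companion layer and hair canal, 2 other type I keratins, 2 partner proteins and 6 follicle stem cell, signal and dermal genes. The last 6 are not structural genes, so the set is wider than shaft and sheath. Of the 35, 32 have an array probe set that names them alone, out of 19938 genes with such a probe set. Krt81, Krt83 and Krt85 have none here and were not analysed. Each gene was read from its brightest probe set.

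RNA of E17.5 (embryonic day) skin from mice labelled female was pooled from 2 animals for each of 4 Affymetrix whole-transcript arrays, 2 of them control and 2 Ovol2 BT. Control mice carried TRE-Ovol2-Flag, a tagged Ovol2 transgene under a tetracycline-responsive element, or were wild type. Ovol2 BT mice carried TRE-Ovol2-Flag with K5-tTA, which makes the tetracycline transactivator from the keratin 5 promoter, active in basal epidermis and in the outer layer of the hair follicle. Ovol2 encodes a zinc finger protein that binds DNA in epithelial cells, and the series compares epidermal differentiation with and without its excess. The labels call the mice littermates but give the strain as CB6F1 for controls and FVB/N for Ovol2 BT, so a strain effect and a transgene effect cannot be told apart here. Skin was taken whole, so fewer cells of a type and less RNA per cell cannot be told apart in any value below.

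A hair follicle grows from the skin as a column of epithelium around a dermal papilla. Matrix cells at its base produce concentric layers, with the hair shaft in the centre, the inner root sheath around it, the companion layer outside that, and the outer root sheath as the outer wall. Keratins work as pairs of a type I and a type II chain, and each layer uses its own pairs: the inner root sheath forms first and guides the shaft, and the sulphur-rich shaft keratins appear as the first hairs are made. Late in mouse gestation back skin holds follicles of several ages, and the oldest are beginning to make inner root sheath.

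Deposited intensities (linear probe set brightness with no detection call) had medians of 123 to 132 on the 4 arrays. Ovol2 itself, a check of the labels, read 360 and 161 in control skin against 4367 and 3893 with the transgene pair. Differences below are Ovol2 BT minus control on the scale of log2(intensity + 16), which understates changes of dim genes, and come from limma fitted over 14953 genes with Benjamini-Hochberg adjustment. Among those genes 144 passed an adjusted p of 0.05 (0.963% of genes, 92 higher and 52 lower). The split moved to 135 higher and 19 lower with arrays centred on epithelial junction genes, chosen after seeing the data, a scaling under which the median over all genes was 0.26 and not -0.002. Keratinocyte markers were bright on all arrays. The summed intensity of 10 of them (among them Krt5, Krt10 and Lor) was 63952 and 54386 in the controls against 48176 and 42482 in Ovol2 BT. Of the 10, 2 (Krt5 and Krt14) were called lower and 0 higher (0.348% and 0.615% of all genes). What part this has in the follicle values below was not tested.

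No member passed the limma test. Of the 25 members tested 0 were called higher and 0 lower at an adjusted p under 0.05 (0.615% and 0.348% of all genes), and 10 had an unadjusted p under 0.05 (10.4% of all genes): 7 were lower (5.24% of all genes) and 3 higher (5.11%). The 7 lower members were 4 inner root sheath keratins, the companion layer keratin Krt75 and the receptors Lgr5 and Lgr6. The 3 higher ones were Padi3, Krt34 and Krt86. Another 7 members with a probe set were among the dimmest 25% of genes by mean and are described without a test. Over all 32, values in the groups did not overlap for 10 lower and 12 higher members, shares that stand beside 18.6% and 23.4% of all genes. With 2 arrays a group an exact permutation test of a single gene cannot give a two-sided p below 0.333.

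**Figure D1:**
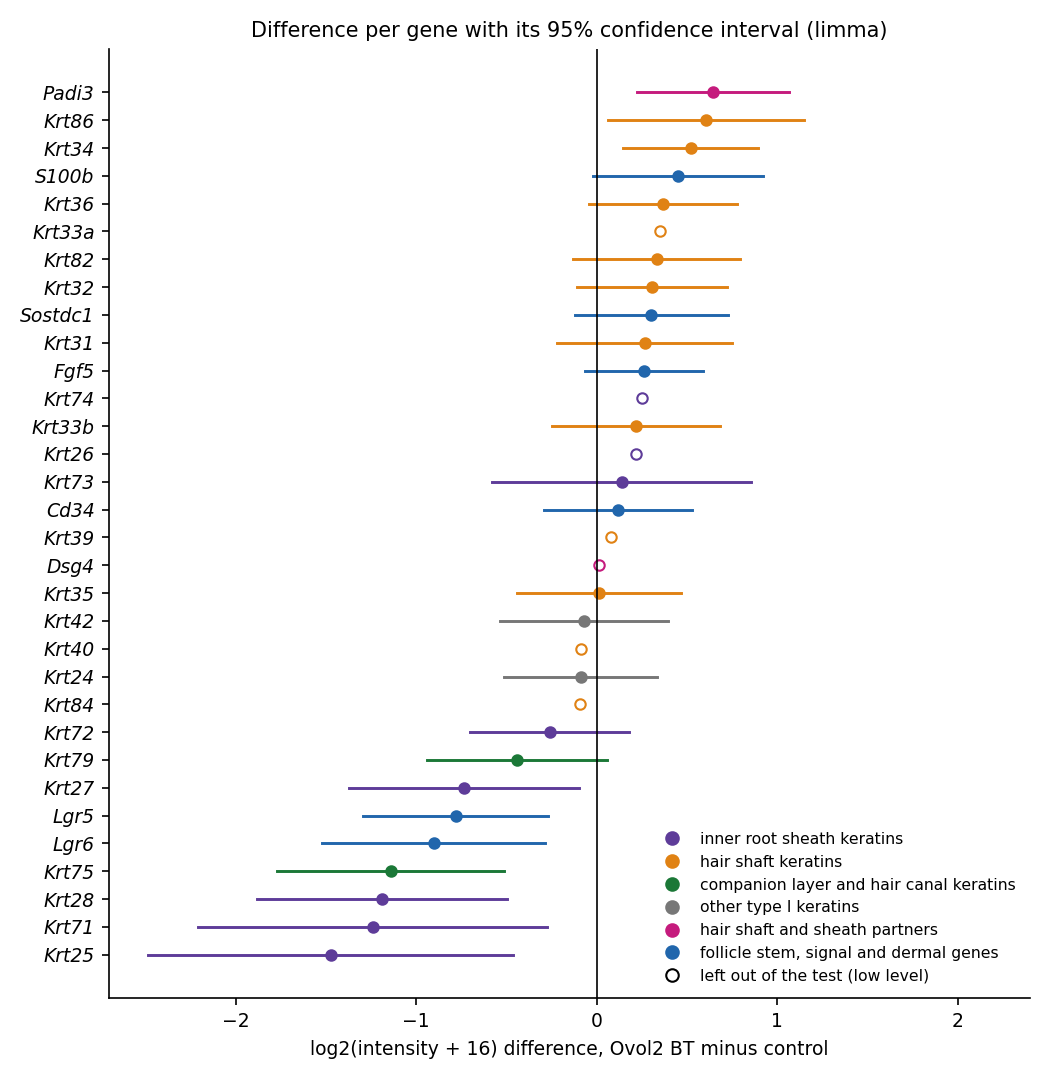
Difference of each of the 32 members between Ovol2 BT and control (log2 of intensity + 16; 2 arrays per group), with the 95% confidence interval of limma as a line and colours for the gene groups. Krt25, Krt71, Krt28 and Krt75 lie farthest below 0 and Padi3 farthest above; hollow points are the 7 members left out of the test.

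Of the inner root sheath keratins, 4 stood lower in Ovol2 BT at an unadjusted limma p under 0.05, and none was called. Krt25, Krt27 and Krt28, type I chains found in all layers of the sheath, and Krt71, their type II partner, had lower values on both Ovol2 BT arrays than on either control. Krt25 read 375 and 1218 in the controls against 211 and 259 in Ovol2 BT, a difference of -1.47 (SE 0.45, 95% interval -2.48 to -0.46, limma adjusted p = 0.272). Krt71 read 399 and 1210 against 256 and 320, a difference of -1.24 (SE 0.43, interval -2.21 to -0.27, adjusted p = 0.353). For both genes control replicate 2 stood far above the 3 other arrays, which lay within a narrower band.

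Krt28 read 216 and 417 in the controls against 102 and 148 in Ovol2 BT, a difference of -1.19 (SE 0.31, interval -1.88 to -0.50, adjusted p = 0.172). Krt27 read 110 and 229 against 83.9 and 95.7, a difference of -0.73 (SE 0.28, interval -1.37 to -0.10, adjusted p = 0.422). In each of these 2 genes the groups did not overlap, and control replicate 2 was again the highest array. The difference of these 4 keratins was below 0 in each other setting in which they were measured and with each array left out; Krt27 had no value with the dimmer 50% of genes left out. They were set apart after their values were seen.

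The other 4 sheath keratins had smaller differences, in both directions. Krt72, a type II keratin of the sheath cuticle, read 277 and 265 in the controls against 227 and 220 in Ovol2 BT (difference -0.26, SE 0.20, interval -0.70 to 0.18, adjusted p = 0.657). Its groups did not overlap, by a small margin, and its difference turned to 0.26 with arrays centred on the median level of the epithelial junction genes. Krt73, another cuticle keratin, read 269 and 559 against 407 and 454, so that both Ovol2 BT arrays lay between the 2 controls (difference 0.14, SE 0.32, interval -0.58 to 0.86).

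Krt26, a type I chain of the cuticle, and Krt74, which RefSeq lists as a transcribed pseudogene in the mouse, were both too dim for the test. Krt26 read 33.7 and 32.7 in the controls against 42.5 and 39.8 in Ovol2 BT, and Krt74 read 45.4 and 47.6 against 59.9 and 56.8. Values of both were thus somewhat higher in Ovol2 BT, at levels where no detection call says whether the gene was measured. Over all 8 sheath keratins the median difference was -0.50, against -0.002 for all genes with a probe set. It was 0.026 with arrays centred on the median level of the epithelial junction genes, where that of all genes was 0.52.

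**Figure D2:**
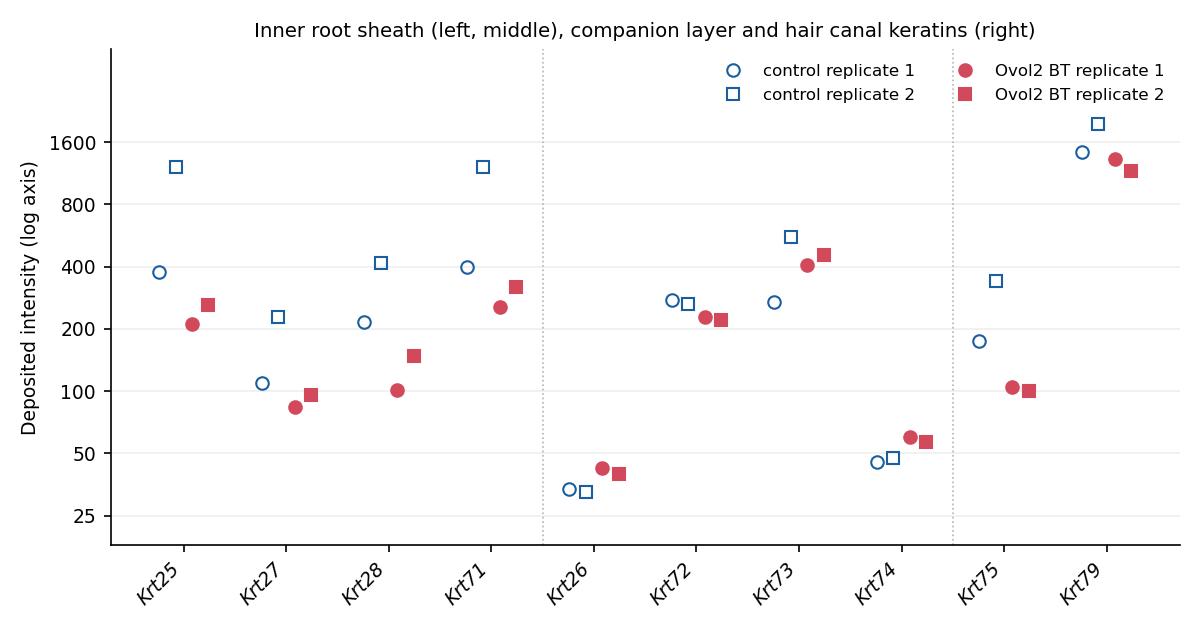
Deposited intensity (log axis) of 8 inner root sheath keratins, the companion layer keratin Krt75 and the hair canal keratin Krt79 on each of the 4 arrays. Krt25, Krt27, Krt28, Krt71 and Krt75 are lower on both filled Ovol2 BT points than on either open control point, with control replicate 2 (open square) highest; Krt73 has the Ovol2 BT arrays between the controls.

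Control replicate 2 set these keratins apart before any comparison of genotype. The intensity of Krt25 there was 3.25 times that of control replicate 1, the highest such ratio among the 14953 genes tested. Krt71 came 3rd at 3.03 times. Krt73 (2.08), Krt27 (2.08), Krt75 (1.95) and Krt28 (1.93) were also among the 120 highest. Of the 32 members 7 had a ratio of at least 1.5, beside 6.05% of all genes with a probe set; the 7th was the dim desmoglein gene Dsg4 (2.03). No hair shaft keratin reached that ratio. The summed intensity of the keratinocyte markers was 63952 in control replicate 1 and 54386 in control replicate 2. Its brightest members there were Krt1 (11944 and 10110) and Krt10 (10654 and 9152). The share of follicle cells on each array was not tested.

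The size of the sheath keratin differences therefore depends on which control is kept. Without control replicate 1 the largest member differences were Krt25 (-2.30), Krt71 (-2.02), Krt28 (-1.64), Krt75 (-1.60), Krt27 (-1.21) and Krt86 (1.01). Without control replicate 2 the same 6 differences were -0.64, -0.46, -0.74, -0.69, -0.25 and 0.19. In both fits the lone control is assumed to vary like the Ovol2 BT arrays. Both also left an infinite prior for the variances, so their calls are not used.

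**Figure D3:**
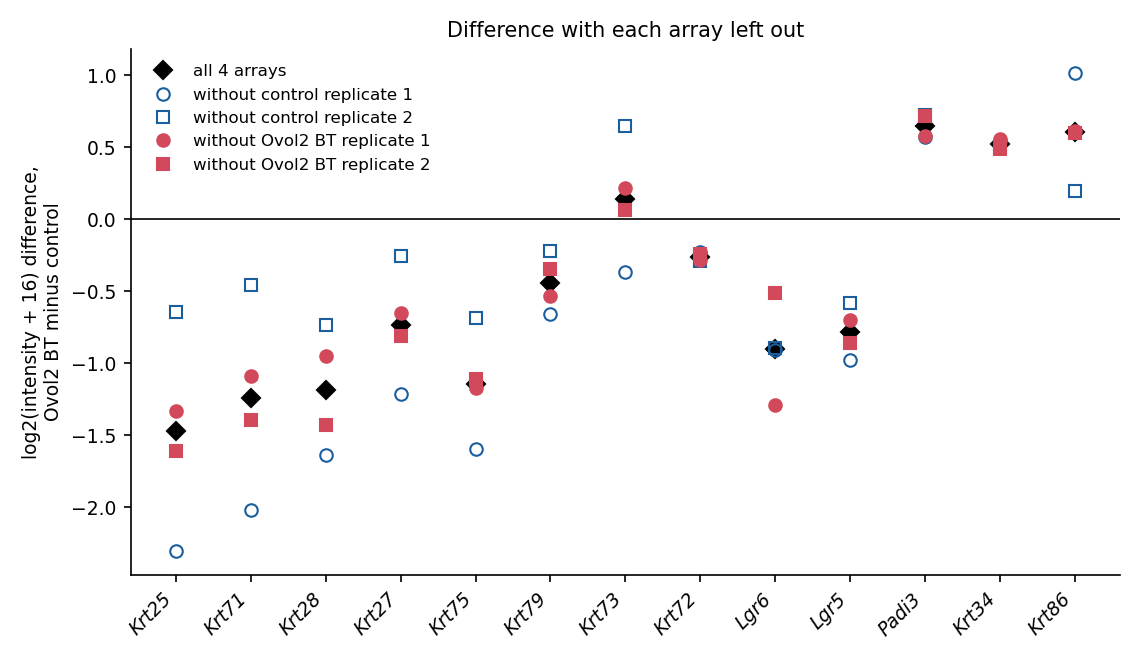
Difference between Ovol2 BT and control (log2 of intensity + 16) for 13 members with all 4 arrays (black diamonds) and with each array left out. For Krt25 it runs from -2.30 without control replicate 1 to -0.64 without control replicate 2, staying below 0, while Krt73 crosses 0; Padi3 and Krt34 move little.

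Krt75, the type II keratin of the companion layer, followed the 4 sheath keratins. It read 175 and 342 in the controls against 105 and 99.9 in Ovol2 BT, a difference of -1.14 (SE 0.28, interval -1.77 to -0.51, limma adjusted p = 0.144). Both Ovol2 BT arrays lay well under the lower control, and this was the smallest adjusted p of all members. Krt79, which marks the cells that open the hair canal, read 1441 and 1963 against 1321 and 1156 (difference -0.44, SE 0.22, interval -0.94 to 0.06, adjusted p = 0.544). Its groups did not overlap, but its difference was 0.08 with arrays centred on the median level of the epithelial junction genes.

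Upstream sequence of the 5 sheath and companion layer keratins with an unadjusted p under 0.05 is shown first. That of 2 hair shaft keratins with positive differences, Krt31 and Krt34, follows. Krt31 overlapped between groups (0.27, limma adjusted p = 0.678). Krt36, Krt82 and Krt32 had larger differences than Krt31 (0.37, 0.33 and 0.31) and are not printed. Each line gives the 250 bases before the transcript start on the minus strand of GRCm38.p6, 5′ to 3′, from RefSeq. Of the 35 members 25 matched the promoter table by symbol, with 1 promoter each. Capitals mark every match, on either strand, to 5 motifs. TATAAA is the common core promoter element known as the TATA box. AGATAA is the recognition sequence of zinc finger proteins such as Gata3. TTTATNG is described for the homeobox protein Hoxc13. CTTTGA is recognised by Lef1 and its relatives, downstream of Wnt signals. CCGTTA is the core recognised by Ovol2 and other OVO proteins. The regions are chr11:99322952-99323201 for Krt25, chr11:99374904-99375153 for Krt28, chr11:99351119-99351368 for Krt27, chr15:101743098-101743347 for Krt71, chr15:101573905-101574154 for Krt75, chr11:100050552-100050801 for Krt31 and chr11:100041555-100041804 for Krt34.
Krt25: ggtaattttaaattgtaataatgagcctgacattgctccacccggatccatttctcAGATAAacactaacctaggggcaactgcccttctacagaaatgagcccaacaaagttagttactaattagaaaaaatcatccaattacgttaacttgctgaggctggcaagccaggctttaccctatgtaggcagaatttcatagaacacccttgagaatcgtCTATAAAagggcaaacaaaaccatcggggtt
Krt28: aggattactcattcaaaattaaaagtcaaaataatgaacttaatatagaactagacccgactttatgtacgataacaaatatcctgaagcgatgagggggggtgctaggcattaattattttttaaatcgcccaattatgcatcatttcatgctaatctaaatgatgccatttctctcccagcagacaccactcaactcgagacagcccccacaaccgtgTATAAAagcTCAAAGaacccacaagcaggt
Krt27: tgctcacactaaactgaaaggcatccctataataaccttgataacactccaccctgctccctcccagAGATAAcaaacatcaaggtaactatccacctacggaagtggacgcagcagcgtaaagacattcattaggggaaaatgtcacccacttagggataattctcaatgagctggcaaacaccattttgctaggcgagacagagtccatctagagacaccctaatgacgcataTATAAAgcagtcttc
Krt71: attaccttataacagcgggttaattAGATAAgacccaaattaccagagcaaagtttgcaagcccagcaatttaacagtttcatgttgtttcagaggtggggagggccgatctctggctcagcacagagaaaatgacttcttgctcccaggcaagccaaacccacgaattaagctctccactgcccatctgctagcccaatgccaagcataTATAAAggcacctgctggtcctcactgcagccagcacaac
Krt75: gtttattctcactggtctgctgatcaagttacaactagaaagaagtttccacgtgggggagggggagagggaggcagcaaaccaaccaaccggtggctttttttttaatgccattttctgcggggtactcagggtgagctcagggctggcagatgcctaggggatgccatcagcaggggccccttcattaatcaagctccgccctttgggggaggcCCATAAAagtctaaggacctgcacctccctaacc
Krt31: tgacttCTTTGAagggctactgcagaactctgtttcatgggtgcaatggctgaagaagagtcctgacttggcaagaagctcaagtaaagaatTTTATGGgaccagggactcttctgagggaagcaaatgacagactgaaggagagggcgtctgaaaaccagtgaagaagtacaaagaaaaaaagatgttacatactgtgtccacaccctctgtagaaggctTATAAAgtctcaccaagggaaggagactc
Krt34: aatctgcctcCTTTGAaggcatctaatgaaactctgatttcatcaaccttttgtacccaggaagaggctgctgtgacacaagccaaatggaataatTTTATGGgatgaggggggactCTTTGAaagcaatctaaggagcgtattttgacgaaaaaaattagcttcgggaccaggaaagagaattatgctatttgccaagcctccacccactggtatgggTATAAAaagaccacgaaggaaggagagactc

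TATAAA stood in all 7 inner root sheath promoters and 6 of 9 hair shaft promoters, against 12.4% of the 32851 promoters in the table. It began 30 bases before the start in Krt25 and Krt28 and 31 before it in Krt34. In Krt72 and Krt84 it was found only on the reverse strand, 203 to 198 and 206 to 201 bases before the start. The counts are thus of matches, not of TATA boxes placed near the start. AGATAA stood in 4 of the 7 sheath promoters (Krt25, Krt27, Krt71 and Krt73) and in none of the 9 hair shaft ones, against 9.99% of all. Krt73 thus shares this match although its values did not follow those of the other 3.

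TTTATNG without a base in a TATAAA match stood in 4 of 9 hair shaft promoters (Krt31, Krt34, Krt40 and Krt82) and 0 of 7 sheath promoters, against 6.85% of all. Counted with such overlaps the shares were 5 of 9 and 4 of 7, against 9.81%. In Krt75 the only match to any motif is TTTATNG on the reverse strand, 34 to 28 bases before the start. The shaft promoter of Krt36, which is not printed, has no match to any motif. CTTTGA stood in 5 of 9 hair shaft and 1 of 7 sheath promoters (13.8% of all), and CCGTTA in 0 of the 25 member promoters (2.18% of all). The motifs were chosen with these sequences and values in view. A match is a stretch of letters, not a shown binding site.

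**Figure D4:**
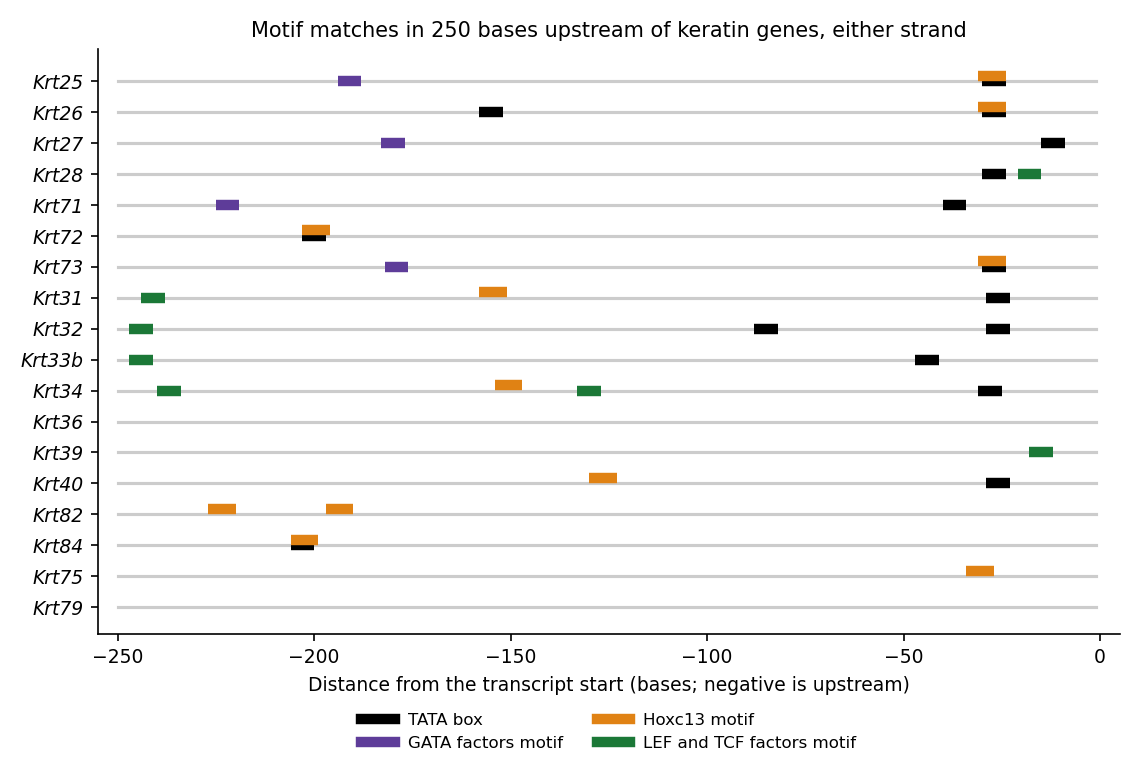
Motif matches on either strand in the 250 bases before the transcript start of 18 keratin genes (7 inner root sheath, 9 hair shaft, then Krt75 and Krt79; distance in bases). Many TATAAA matches (labelled TATA box) lie near 30 bases before the start, but those of Krt72 and Krt84 begin 203 and 206 bases before it, on the reverse strand. GATA matches appear in 4 inner root sheath genes. Hoxc13 matches raised above the line overlap a TATAAA match in Krt25, Krt26, Krt72, Krt73 and Krt84.

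Values of hair shaft keratins stood slightly higher in Ovol2 BT. Of the 12 with a probe set 10 had positive differences, beside 49.7% of all genes. The median was 0.29, against -0.002 for all genes and -0.041 for the tested ones. These keratins read between 32.2 and 523 with no detection call, and genes of like level were not set beside them. The median of the 12 lay between 0.19 and 0.81 over all settings tried. The 0.81 came with arrays centred on the median level of the epithelial junction genes, where the median of all genes was 0.52. Type I keratin Krt34, a chain of the hair cortex, read 101 and 97.7 in the controls against 145 and 154 in Ovol2 BT (difference 0.52, SE 0.16, interval 0.15 to 0.89, limma adjusted p = 0.299). The replicates lay close together and the groups were apart. Krt36, another type I shaft chain, read 133 and 109 against 155 and 165 (0.37, SE 0.18, interval -0.04 to 0.78).

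Among type II shaft keratins, Krt82 of the hair cuticle read 329 and 334 in the controls against 439 and 404 in Ovol2 BT (0.33, SE 0.20, interval -0.13 to 0.80). Krt86, a cortex chain, read 87.4 and 42.6 against 102 and 103 (0.60, SE 0.24, interval 0.06 to 1.15, adjusted p = 0.433). Its 2 controls differed more from each other than control replicate 1 did from Ovol2 BT. Krt84, also type II, was too dim for the test and its groups overlapped (52.0 and 48.2 against 38.7 and 54.3).

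The type I shaft chains Krt33b (425 and 437 against 485 and 523) and Krt32 (97.8 and 84.8 against 135 and 99.9) had groups that did not overlap. Krt31 (136 and 177 against 217 and 167) and Krt35, an early chain of the forming shaft (103 and 148 against 117 and 132), had groups that did. Krt33a, Krt39 and Krt40 were too dim for the test, with intensities between 32.2 and 89.6. The interval of Krt35 ran from -0.44 to 0.47, which holds shifts of that size in either direction. Shaft keratins have near-identical neighbours (such as Krt31, Krt33a, Krt33b and Krt34), and probes that several of them could bind were not told apart here.

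**Figure D5:**
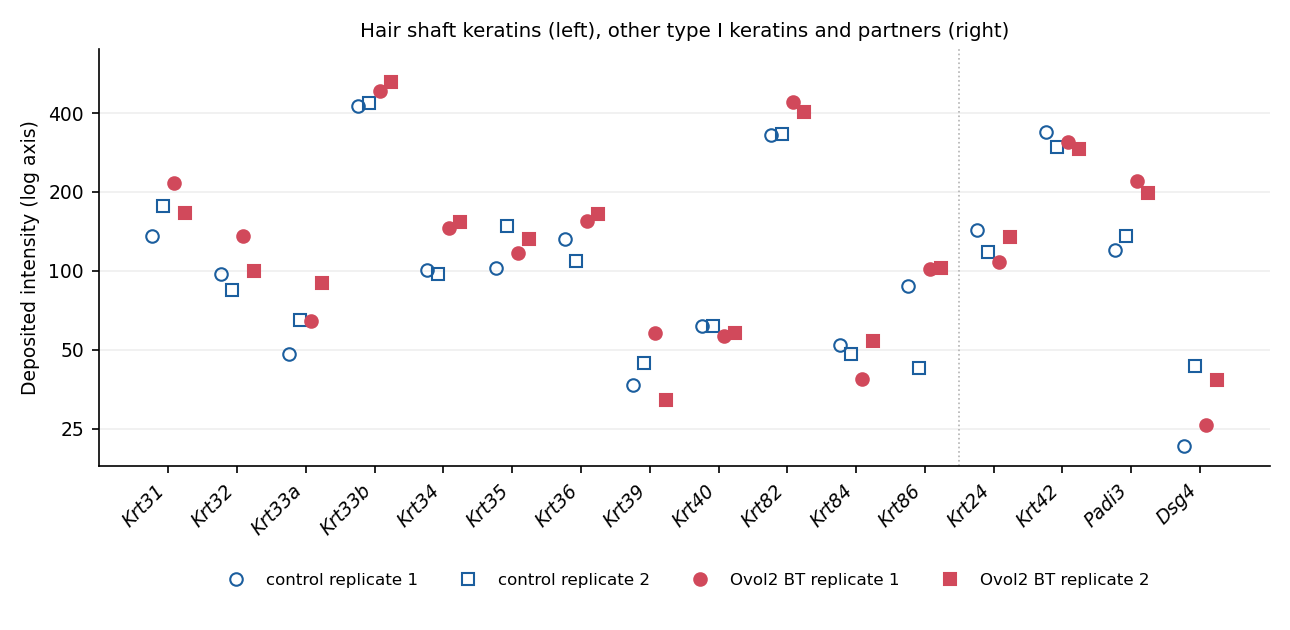
Deposited intensity (log axis) of 12 hair shaft keratins, the type I keratins Krt24 and Krt42, and the partner genes Padi3 and Dsg4 on each of the 4 arrays. Krt34, Krt36, Krt82 and Padi3 have both filled Ovol2 BT points above the open control points, while Krt31, Krt35, Krt42 and Dsg4 overlap.

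The 2 partner proteins were measured at low levels. Padi3, an enzyme that turns arginine into citrulline in trichohyalin of the inner root sheath and medulla, read 120 and 135 in the controls against 220 and 198 in Ovol2 BT. Its difference of 0.65 (SE 0.19, interval 0.23 to 1.06, adjusted p = 0.242) was the highest of all members, and it kept between 0.57 and 0.72 with each array left out. Dsg4, the desmoglein of the hair cortex, read 21.5 and 43.5 against 25.8 and 38.3 and was left out of the test. Krt24 (143 and 118 against 108 and 135) and Krt42, a nail and follicle keratin of the mouse (337 and 297 against 311 and 291), overlapped between groups. Their differences of -0.09 and -0.07 turned positive under centring on the epithelial junction genes (0.17 and 0.19 by deviations, 0.43 and 0.45 by levels).

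Values of both stem cell receptors of the follicle stood lower in Ovol2 BT. Lgr5, a receptor for R-spondins that marks cells of the lower follicle, read 673 and 890 in the controls against 419 and 470 in Ovol2 BT (difference -0.78, SE 0.23, interval -1.29 to -0.27, limma adjusted p = 0.248). Lgr6, its relative in the upper follicle and placode, read 977 and 988 against 684 and 392 (-0.90, SE 0.27, interval -1.52 to -0.28, adjusted p = 0.272). The groups did not overlap for either gene. Lgr6 was close between controls and spread between the Ovol2 BT arrays: leaving out Ovol2 BT replicate 1 gave -1.29, and leaving out Ovol2 BT replicate 2 gave -0.51.

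The 4 other signal and dermal genes had positive differences and were not called. S100b, a calcium-binding protein of Schwann cells and fat cells, read 284 and 239 in the controls against 374 and 351 in Ovol2 BT (0.45, SE 0.21, interval -0.02 to 0.92). Beside it, 9 measured adipocyte markers summed to 6370 and 3889 in the controls against 22104 and 19868 in Ovol2 BT. Of these, 8 were called higher and 0 lower (0.615% and 0.348% of all genes). The 8 measured Schwann and nerve markers summed to 11445 and 9698 against 9162 and 9636. Of the 7 tested, 0 were called by limma and 0 had an unadjusted p under 0.05 (0.963% and 10.4% of all genes). No measured marker of either list was at 0, the lowest being Cdh19 at 1.23 on 1 Ovol2 BT array. The part of either cell type in S100b was not tested.

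Cd34, a marker of bulge stem cells after birth that vessels and dermal cells also carry, read 4517 and 3721 against 4028 and 4920, with overlapping groups (0.12, interval -0.29 to 0.53). The 10 endothelial markers summed to 8965 and 8202 in the controls against 9878 and 10635 in Ovol2 BT. Of these, 0 were called by limma and 0 had an unadjusted p under 0.05 (0.963% and 10.4% of all genes). Sostdc1, an inhibitor of BMP and Wnt signals, read 2336 and 1899 against 2635 and 2567 (0.30, interval -0.12 to 0.73). Fgf5, which ends hair growth in the adult follicle, read 73.0 and 74.4 against 94.6 and 88.6 (0.26, interval -0.06 to 0.59). Neither Sostdc1 nor Fgf5 overlapped between groups. Of 10 dermal papilla markers, Sostdc1 included, 9 had negative differences, where 49.7% of all genes had positive ones. Of these 10, 0 were called by limma. At an unadjusted p under 0.05, 6 were lower and 0 higher (5.24% and 5.11% of all genes).

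Genes that direct shaft and sheath formation mostly had negative differences. Of 20 such regulators 3 were called lower (0.348% of all genes) and 0 higher, and 17 had negative differences, where 49.7% of all genes had positive ones. Sox21, a transcription factor of the hair shaft cuticle, read 516 and 560 in the controls against 192 and 204 in Ovol2 BT and fell by 1.37 (SE 0.20, limma adjusted p = 0.0167). The other calls were Msx2 (-1.24), a homeobox factor of the matrix, and Edar (-1.22), the ectodysplasin receptor. Lef1, which binds the CTTTGA motif with beta-catenin, was at -1.03 (adjusted p = 0.0653). Control replicate 2 stood at 1.08, 1.15 and 1.04 times control replicate 1 for Sox21, Msx2 and Edar.

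The factors whose motifs were searched are named after their values were seen. Hoxc13, a homeobox factor of hair shaft keratin genes, read 264 and 357 in the controls against 166 and 175 in Ovol2 BT (-0.79, SE 0.22, adjusted p = 0.210). Gata3, which specifies the inner root sheath, read 1669 and 1449 against 1345 and 1146 (-0.32, SE 0.20, adjusted p = 0.613). Neither overlapped between groups, and neither passed the test.

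Other shaft and sheath protein genes had differences in both directions. Of 25 listed partner genes 23 had a probe set and 19 were tested, with 1 called lower and 0 higher (0.348% and 0.615% of all genes). That call was the transglutaminase gene Tgm3, which cross-links sheath and cuticle proteins and fell by 1.89. The arginine deiminase gene Padi2 (0.74, adjusted p = 0.144), the lipase gene Lipk (-1.11, adjusted p = 0.223) and the desmocollin gene Dsc2 (0.49, adjusted p = 0.282) had the next smallest p-values. Tchh, which encodes trichohyalin, the substrate of Padi3, read 79.7 and 161 in the controls against 90.9 and 91.4 in Ovol2 BT. Like Krt25 and Krt71 it was highest in control replicate 2, and it is named here after its values were seen.

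Keratin-associated proteins fill the space between filaments of the mature shaft. Of 44 Krtap genes with a probe set 25 were tested and 0 were called by limma. At an unadjusted p under 0.05, 3 were higher and 0 lower (5.11% and 5.24% of all genes). Differences were positive in 35 of the 44, beside 49.7% of all genes, with a median of 0.15 and a range from -0.88 to 0.76. Genes of like level were not set beside them. Values were higher without overlap in 20 and lower in 1, beside 23.4% and 18.6% of all genes. The smallest p-values were those of Krtap4-1 (0.38), Krtap19-2 (0.44), Krtap11-1 (0.35) and Krtap5-4 (0.41), with adjusted p-values between 0.393 and 0.529. These genes form families of close copies, so single members are uncertain.

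The outer root sheath and follicle stem cell list, 12 genes measured, had 2 called lower (0.348% of all genes) and 0 higher. All 12 had negative differences, where 49.7% of all genes had positive ones, but the smallest was -0.028 (Postn). Values were lower without overlap in 7, beside 18.6% of all genes, and overlapped in 5. The calls were the keratin gene Krt15 (-2.29) and Lhx2 (-1.83), a transcription factor of follicle progenitors. The keratinocyte markers Krt5 and Krt14 were also called lower (-1.10 and -1.24), and what part basal epidermis has in Krt15 was not tested. Gli1, a target of hedgehog signals (-0.91, adjusted p = 0.233), and the homeobox gene Barx2 (-0.51, adjusted p = 0.457) had the next smallest p-values. Krt15 and Lhx2 thus passed the test while Lgr5 and Lgr6 did not; the differences between these genes were not tested.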

How the data were processed

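The authors deposited linear intensities; the submitters' processing notes name PLIER 2.0 and Affymetrix Expression Console 1.1.1. Background correction, normalization and genome build: not given in the sources used here. Of 35557 probe sets 21789 name 1 gene by the platform annotation, and the brightest per gene was used unscaled. Titles gave groups and numbers, and name the arrays as biological replicates. The fit used log2(intensity + 16), a group term, limma 3.58.1 in R 4.3.3 (two-sided; eBayes with trend; prior degrees of freedom 6.94, residual 2), without the 25% of genes lowest in mean level (4985). Every member was named; of the related lists, called genes and the 4 smallest p. Members, lists and tests were chosen with earlier results of these data known. Tested on simulated data (20 runs, 14953 genes), the fit called 31.9% of genes changed 2-fold and 97.7% changed 4-fold, with 4.65% of calls false. The simulated noise was drawn from the fitted variance prior and was independent between arrays. It held neither the correlation of 0.41 between same-numbered arrays nor an outlying control, so these shares hold for such noise only. Plots used Python 3.11.15 and matplotlib 3.10.9.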

Additional observations from a re-analysis of the deposited data

How the results depend on the processing

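With 4 arrays and no detection calls, a missing call says little about changes near 2-fold. Over the planned settings 144 genes and 0 members became 4828 and 16 with arrays centred on the median level of the epithelial junction list. Medians were then 0.026 for inner root sheath keratins, 0.81 for hair shaft keratins and 0.52 for all genes. That centring left an infinite prior for the variances, so its calls are not used. Centring on the median deviation of the same genes, chosen after seeing the data, gave 154 genes and 0 members. The hair shaft median was then 0.55, against 0.26 for all genes. The replicate block (the shared replicate number as a term) gave 671 genes and 7 members: Krt25, Krt28, Krt71, Krt75, Lgr5 and Lgr6 lower and Padi3 higher. Deviations of same-numbered arrays correlated at 0.41, but no label pairs the arrays. With each array left out, genes called ran from 206 to 366, members called from 0 to 6, the sheath median from -0.79 to -0.27 and the shaft median from 0.19 to 0.36. The shaft median was 0.32 and 0.22 with pseudocounts of 1 and 64 and 0.31 with arrays centred on their median. Signs turned for Krt35 (-0.0071), Krt42 (0.010) and the untested Dsg4 (-0.060) under quantile normalization, and for Dsg4 with a pseudocount of 64 (-0.0002). They turned for Krt72 (0.26), Krt79 (0.082), Krt24 (0.43), Krt42 (0.45) and the untested Krt40 (0.44) and Krt84 (0.43) under centring by level, with Krt24 (0.17), Krt42 (0.19), Krt40 (0.18) and Krt84 (0.17) by deviation. With 1 array left out Krt73 ran from -0.37 to 0.65, Krt35 from -0.22 to 0.25, Krt24 from -0.23 to 0.052, Krt42 from -0.16 to 0.017 and Cd34 from -0.025 to 0.26, and, untested, Krt39 from -0.23 to 0.39, Dsg4 from -0.32 to 0.35 and Krt84 from -0.27 to 0.088. The cause was not tested.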

Other observations

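Genes of the hair canal and sebaceous gland, which share the upper follicle with Krt79 and Lgr6, did not move one way. Of 10 listed genes 9 had a probe set and 6 were tested, with 1 called higher and 0 lower by limma (0.615% and 0.348% of all genes). The call was Scd1, a fatty acid desaturase of sebocytes and fat cells, at 982 and 873 in the controls against 3385 and 5767 in Ovol2 BT (2.23, adjusted p = 0.00605). Krt7, a simple epithelium keratin also found in sebaceous cells, read 695 and 329 against 191 and 91.7 (-1.73, adjusted p = 0.103). Gata6, a factor of the sebaceous duct, read 470 and 338 against 571 and 648 (0.59, adjusted p = 0.433), and Mc5r, a melanocortin receptor of sebocytes, 156 and 166 against 256 and 228 (0.55, adjusted p = 0.365). The adipocyte marker sums given with S100b were also higher in Ovol2 BT, and the part of fat in Scd1 was not tested.

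Some neighbours in the keratin gene clusters differed in direction and others did not. On chromosome 11 the sheath genes lie in a row in the order Krt25, Krt26, Krt27, Krt28, and Krt26 alone of the 4 had a positive difference (0.22), while Krt24 before them was at -0.09. On chromosome 15 the order Krt71, Krt74, Krt72, Krt73 held differences of -1.24, 0.25, -0.26 and 0.14; that of Krt72 turned positive with arrays centred on the epithelial junction genes by level, and that of Krt73 negative without control replicate 1. The next gene named as a keratin after Krt75 (-1.14) is Krt6b, a keratin of activated keratinocytes that rose by 3.73 (limma adjusted p = 0.0046). The shaft row Krt33a, Krt33b, Krt34, Krt31, Krt32, Krt35 and Krt36 on chromosome 11 held differences from 0.01 to 0.52, all positive with all 4 arrays as deposited; that of Krt35 turned negative under quantile normalization and without control replicate 1 or Ovol2 BT replicate 2.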
